A study of Mus musculus with 23 samples.

Results

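Expression of 10 early-response genes was described over macrophages and monocytes sorted from mice with and without a hydrogel under the skin. The members were Egr1, Egr2, Nr4a1, Nr4a2, Nr4a3, Klf2, Klf4, Klf6, Ier2 and Ier3, chosen by symbol from the 47729 entries of a table of gene counts. Wildtype C57BL/6J mice received a poly(ethylene glycol) hydrogel subcutaneously, and the series follows the response to this foreign body. The macrophages, taken as Cx3cr1+ and Ly6C-low, came from controls with no treatment (2 libraries) and from implants at days 2, 14 and 28 (3 libraries each). The monocytes, taken as Cx3cr1+ and Ly6C-high, came from untreated controls and from the same 3 days, with 3 libraries a group. All samples, controls included, carry subcutaneous tissue as their tissue label and the same note of a digestion with Liberase TM. Animal age is not given in the labels, nor is it stated whether animals were pooled for a library, so the p-values measure the spread between these libraries.

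Early-response genes are switched on within minutes of a stimulus and need no new protein to be made first. Most of the members encode transcription factors, which carry the signal on to later genes. Growth factors, stress, microbial products and the handling of tissue are all known to induce them, through serum response factor, CREB and NF-kB among others. The Egr proteins are zinc finger activators, the Nr4a proteins are nuclear receptors that act without a known natural ligand, the Klf proteins are zinc finger factors that act in myeloid and endothelial cells, and Ier2 and Ier3 are small early-response proteins. In mice, Nr4a1 is required for the Ly6C-low nonclassical monocytes of blood, and Klf2 is high in the same cells.

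Sequence upstream of RefSeq transcript starts on GRCm38.p6 is shown for the members whose rise was largest or differed most between the cell types. For the Nr4a genes and Ier3 it is the 250 bases before a start, and for Egr2 the 30 bases around 1 motif. Capitals mark TGACG, the core of the cyclic AMP response element that CREB and CREM bind, on either strand in the Nr4a genes. In Egr2 they mark the CArG box, the motif of serum response factor, and in Ier3 the NF-kB motif.
Nr4a1, chr15:101266596-101266845, plus strand: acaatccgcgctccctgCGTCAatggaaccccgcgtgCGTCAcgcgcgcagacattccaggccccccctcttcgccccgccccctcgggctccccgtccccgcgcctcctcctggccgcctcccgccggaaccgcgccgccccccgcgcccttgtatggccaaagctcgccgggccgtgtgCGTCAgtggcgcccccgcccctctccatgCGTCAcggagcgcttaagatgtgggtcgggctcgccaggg
Nr4a2, chr2:57124004-57124253, minus strand: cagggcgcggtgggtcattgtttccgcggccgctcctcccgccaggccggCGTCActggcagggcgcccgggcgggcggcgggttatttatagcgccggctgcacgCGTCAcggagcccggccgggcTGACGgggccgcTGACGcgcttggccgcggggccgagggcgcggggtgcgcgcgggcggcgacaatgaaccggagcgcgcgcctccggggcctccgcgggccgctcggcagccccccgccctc
Nr4a3, chr4:48045055-48045304, plus strand: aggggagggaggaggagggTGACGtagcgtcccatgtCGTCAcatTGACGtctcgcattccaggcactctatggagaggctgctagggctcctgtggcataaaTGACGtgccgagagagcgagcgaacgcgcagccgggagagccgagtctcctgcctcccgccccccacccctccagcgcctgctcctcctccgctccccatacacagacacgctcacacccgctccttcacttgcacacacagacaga
Egr2, chr10:67537787-67537816, plus strand: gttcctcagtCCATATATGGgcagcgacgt
Ier3, chr17:35821463-35821712, plus strand: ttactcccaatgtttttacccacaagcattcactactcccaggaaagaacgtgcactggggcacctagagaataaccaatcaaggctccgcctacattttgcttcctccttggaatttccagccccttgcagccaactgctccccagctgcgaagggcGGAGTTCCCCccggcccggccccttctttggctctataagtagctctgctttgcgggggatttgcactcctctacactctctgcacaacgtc

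The windows searched were 300 bases long, from 250 before to 50 after a start, and 8 members have 12 of them. No window was searched for Egr1 or Ier2, so the matches below do not cover these members. Each of the Nr4a windows held 4 copies of TGACG, 3 of the 5 Egr2 windows held 2 each, and those of Klf2 and Klf4 held 1 each. Of all 32851 RefSeq windows, 20.81% held at least 1 copy and 0.23% held 4 or more. The cut of 4 equals the number in the Nr4a windows, so the 0.23% is a description and no test of enrichment. In Nr4a1 the copies began 233, 213, 69 and 40 bases upstream of the start, in Nr4a2 200, 144, 123 and 111 bases upstream, and in Nr4a3 231, 213, 205 and 147 bases upstream. The palindrome TGACGTCA, held by 1.79% of windows, was in none of the 12 windows searched. A CArG box was held by 1.63% of windows and by 4 of the 5 Egr2 windows. The box shown began 72 bases upstream of its start and also lay in the windows of 2 neighbouring starts, while 1 further window held another box. The NF-kB motif, held by 4.51%, began 92 bases upstream of the Ier3 start and 3 bases upstream of the Nr4a1 start. The Egr motif GCGGGGGCG, held by 2.91%, was in the windows of Nr4a1, Klf2 and Klf4, and its second form GCGTGGGCG (0.61%) and the Nr4a motif AAAGGTCA (1.51%) were in none. These matches describe letters in the windows only.

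All 10 members passed the filter on low counts that left 16260 genes. Nr4a3 passed it through its implant libraries, since 4 of its 5 control libraries held from 0 to 2 counts, so a difference from controls was close to a condition of being tested. Each member is a protein-coding gene that overlaps no other annotated gene. On GRCm38, Egr1 (ENSMUSG00000038418) lies on chromosome 18 from 34859823 to 34864984, plus strand. Egr2 (ENSMUSG00000037868) lies on chromosome 10 from 67535475 to 67542188, plus strand. Nr4a1 (ENSMUSG00000023034) lies on chromosome 15 from 101254269 to 101274795, plus strand. Nr4a2 (ENSMUSG00000026826) lies on chromosome 2 from 57106830 to 57124003, minus strand. Nr4a3 (ENSMUSG00000028341) lies on chromosome 4 from 48045153 to 48086447, plus strand, and Klf4 (ENSMUSG00000003032) on the same chromosome from 55527143 to 55532466, minus strand. Klf2 (ENSMUSG00000055148) lies on chromosome 8 from 72319033 to 72321656, plus strand, and Ier2 (ENSMUSG00000053560) on the same chromosome from 84661331 to 84662852, minus strand. Klf6 (ENSMUSG00000000078) lies on chromosome 13 from 5861482 to 5870394, plus strand. Ier3 (ENSMUSG00000003541) lies on chromosome 17 from 35821684 to 35822923, plus strand.

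Sequencing depth was between 9303153 and 32994092 counts a library (median 24722229). Levels are given as CPM, counts scaled to library size with TMM factors, where 3 counts correspond to 0.0654 to 0.362 CPM, and such floors cover counting error only. Per kilobase of exon, the TMM-scaled level of Ier3 was the highest of the 10 in every implant group, with a mean of 646 to 3154 CPM per kilobase. In control monocytes the highest per kilobase was Ier2 at 240 and in control macrophages Ier2 at 123, while Nr4a3 was lowest in 7 of the 8 groups at 0.00501 to 5.96 and Egr1 lowest in monocytes at day 14 at 4.37. The TMM factors were 1.24 to 1.41 in the 5 control libraries and 0.727 to 1.04 in the implant libraries. On library totals without TMM the median change of all genes against controls shifted from between -0.16 and 0.00 to between -0.77 and -0.38 on the log2 scale. Changes below are relative to the TMM scale, and a call that the other scale ended is named beside it. Shares of all genes are those of the TMM fit also where counts without TMM stand near them. The split of all genes without TMM is given in the closing section.

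The labels were compared with the markers of each cell type. Ly6c2, which encodes Ly6C, had 836 to 3586 CPM in the monocyte libraries and 5.49 to 236 in the macrophage libraries. C1qa, a complement gene of macrophages, had 2122 to 2614 CPM in control macrophages and 608 to 1480 in implant macrophages. It had 1.09 to 1.37 in control monocytes and 143 to 528 in implant monocytes. The sum of 7 macrophage markers was 8215 to 9173 CPM in control and 5690 to 8341 in implant macrophages. In monocytes this sum was 2969 to 3789 in controls and 4610 to 6982 around the implant. Fcgr1, on that list, had 617 to 1645 CPM in implant monocytes and 168 to 661 in macrophage libraries. F13a1, a classical monocyte marker, had 2649 to 3877 CPM in control macrophages and 1443 to 2327 in control monocytes. The sum of 8 nonclassical monocyte markers, none at 0 in any group, was 737 to 1288 CPM in control monocytes, 138 to 254 in implant monocytes and 59.4 to 193 in macrophages. The sum of 9 neutrophil markers was 64.8 to 101 CPM in control macrophages, with Ly6g and Elane at 0, and 1759 to 3696 in macrophages at day 2. In monocytes this sum was 2159 to 3263 CPM in controls, 1084 to 2818 at day 2, 135 to 505 at day 14 and 198 to 312 at day 28. Ngp, a granule gene of immature neutrophils, had 780 to 1394 CPM in control monocytes and at most 12.4 in any implant monocyte library. Elane, neutrophil elastase, had 29.8 to 55.6 and at most 4.16. Camp, Ltf, Mpo and Csf3r also had lower means in monocytes at day 2 than in controls. Retnlg, Ly6g and S100a8 had higher ones. Their means in controls and at day 2 were 0.911 and 208 CPM, 1.00 and 6.21, and 603 and 1499. In macrophages at day 2 S100a8 had 1460 to 3157 CPM, Retnlg 167 to 414, Ly6g 9.30 to 20.55 and Ngp 2.84 to 18.5. Their highest values in control macrophages were 2.64, 3.78, 0 and 0.588 CPM. Csf3r had 85.6 to 117.5 CPM at day 2 and 58.0 to 99.0 in those controls. Elane, Camp, Ltf and Mpo had at most 3.38 at day 2. Beyond the tissue label, the labels do not say where the control monocytes were taken. A different source or make-up of these cells cannot be told apart from the implant's effect in any monocyte comparison with controls. The sum of 5 fibroblast markers was 0.0436 to 0.142 CPM in control monocytes, with Col1a1 and Pdgfra at 0, and 338 to 740 in monocytes at day 14. In macrophages it was 166 to 172 CPM in controls and 1.52 to 90.5 around the implant. The part of other cells in the macrophage comparisons was not tested. At day 2, replicate C of the macrophages and replicate B of the monocytes stood apart by T cell marker sums of 97.1 and 94.3 CPM, where the other libraries at day 2 had 4.90 to 11.4, and macrophage replicate B by a mitochondrial share of 4.35% of counts.

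Against controls, Nr4a2 and Ier3 were higher at all 3 days in both cell types, and Klf4 and Klf6 in 5 of the 6 comparisons each. Nr4a3 was called in all 6 as well, a difference close to a condition of its being tested. Egr2 rose at every day in monocytes, and Nr4a1 at every day in macrophages. Klf2 fell at every day in monocytes. Egr1 and Ier2 rose in none of the 6 comparisons and fell in monocytes at day 14.

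**Figure D1:**
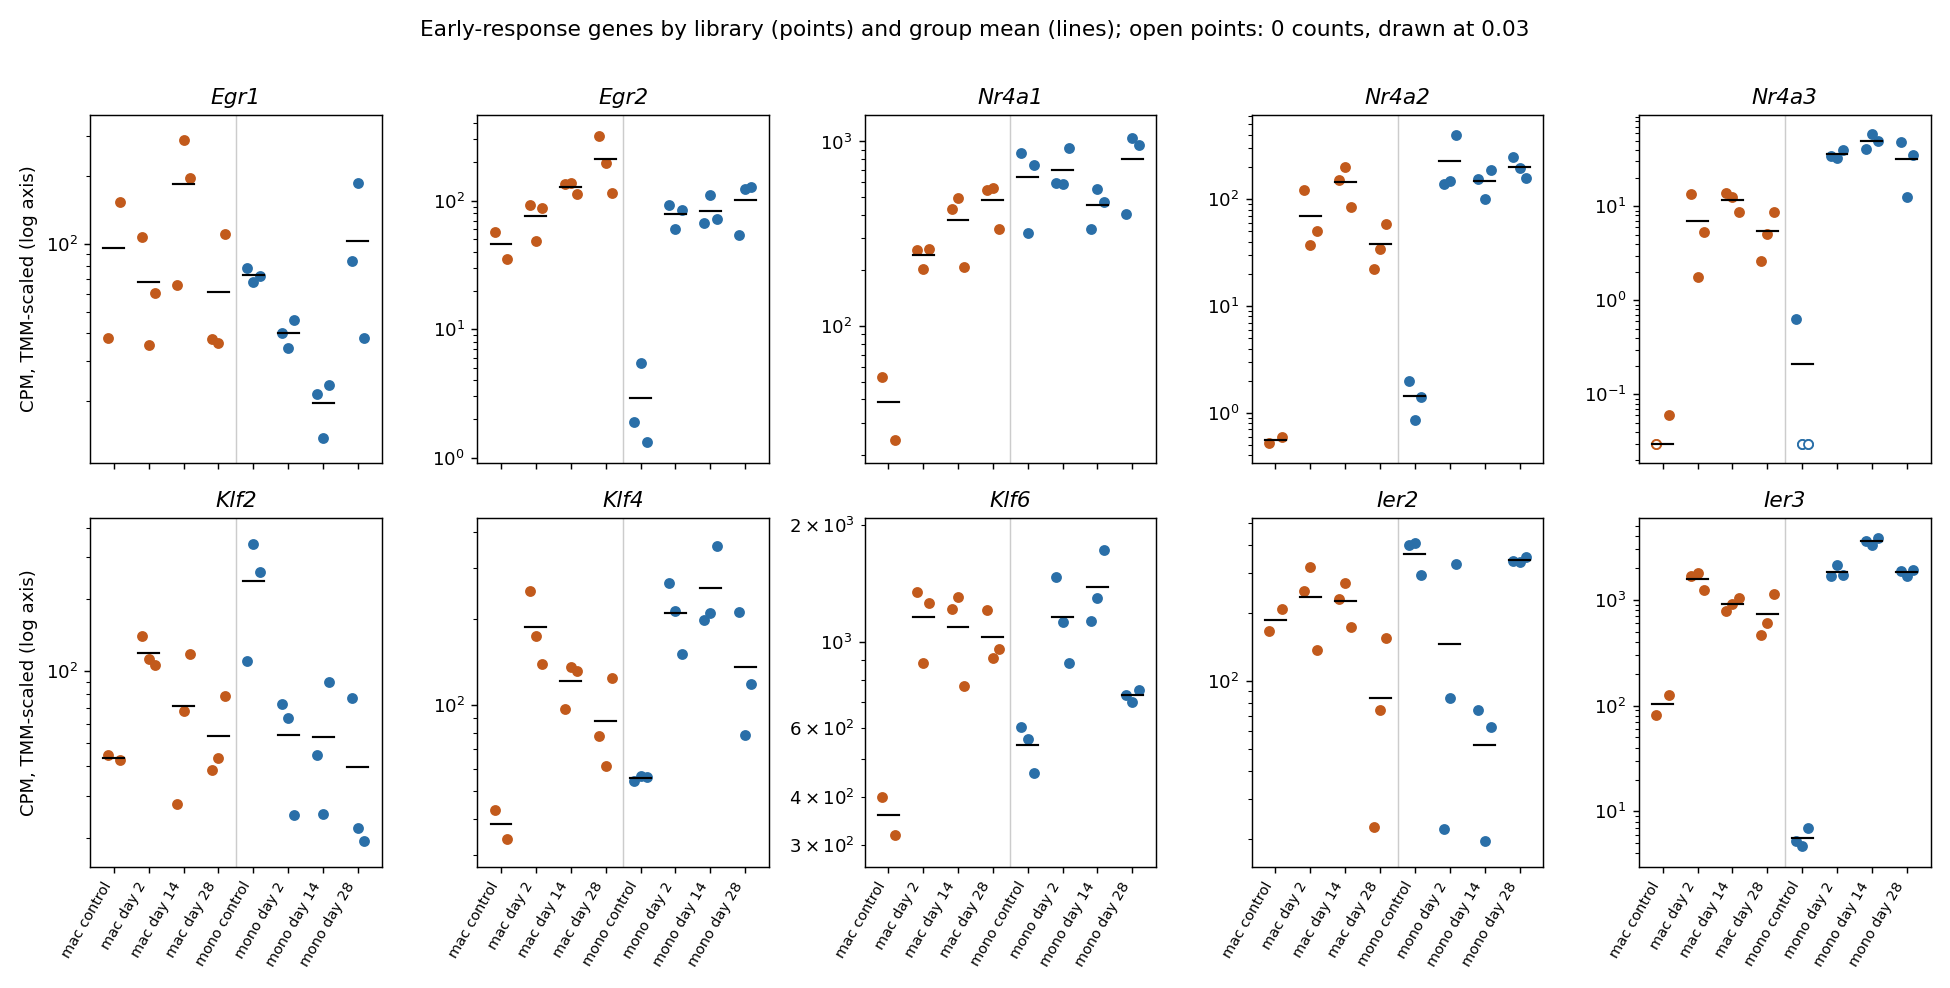
TMM-scaled CPM on log axes for the 10 genes in 23 libraries, macrophages in orange and monocytes in blue, with a line at each group mean and open points at 0 counts. Nr4a2, Nr4a3 and Ier3 are lowest in both control groups, and Nr4a1 is low in the 2 macrophage controls alone.

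Macrophages around the implant were compared with macrophages of untreated mice at each day. In edgeR's quasi-likelihood test with Benjamini-Hochberg adjustment, 6 of the 10 members were higher and 0 lower at day 2, where 10.1% of all genes tested were higher and 7.1% lower. At day 14, 6 were higher and 0 lower, against 5.51% and 2.7% of all genes, and at day 28, 6 and 0, against 6.57% and 3.99%. The members called at day 2 were Nr4a1, Nr4a2, Nr4a3, Klf4, Klf6 and Ier3, at day 14 the same 6, and at day 28 Egr2 in place of Klf4. The unadjusted p was under 0.05 for 7 members at each day. The members' median log2 change was 1.99, 1.63 and 1.86, beside -0.16, -0.08 and -0.04 over all genes. Leaving Nr4a3 out of the count, 5 of 9 members were higher at each day.

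In monocytes around the implant against those of untreated mice, 6 members were higher and 1 lower at day 2, where 15.5% of all genes were higher and 11.5% lower. At day 14, 6 were higher and 3 lower, against 19.8% and 17.9%, and at day 28, 5 and 1, against 11.7% and 6.52%. The unadjusted p was under 0.05 for 7, 9 and 6 members. The members' median log2 change was 1.51, 1.78 and 0.89, beside 0.00, -0.03 and 0.00 over all genes. With Nr4a3 left out, 5, 5 and 4 of 9 members were higher. The 6 comparisons share control libraries within a cell type, so that the days are not independent of each other.

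**Figure D2:**
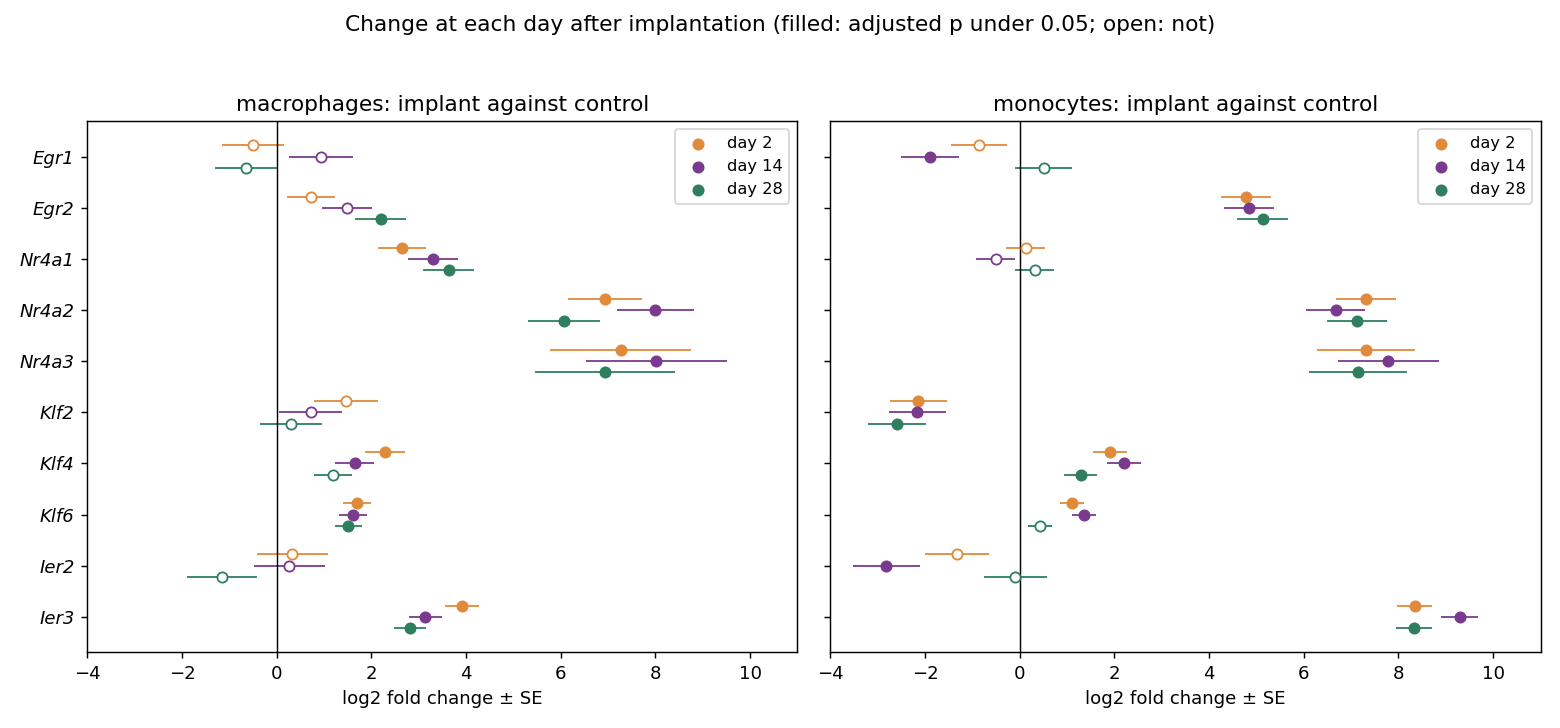
Log2 fold change ± SE against controls for each gene in macrophages (left) and monocytes (right) at days 2, 14 and 28; filled points have an adjusted p under 0.05. Nr4a2 and Nr4a3 lie above 6 on both sides, Ier3 near 3 in macrophages and above 8 in monocytes; for Nr4a3 the fitted value rests on few control counts.

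Nr4a2, a nuclear receptor best known for its part in dopamine neurons, was low in both control groups. In control macrophages it had 0.523 and 0.599 CPM, and in control monocytes 2.005, 0.850 and 1.42. In implant macrophages it had 123, 37.0 and 50.6 CPM at day 2, 153, 202 and 84.3 at day 14, and 22.1, 34.5 and 58.7 at day 28. In implant monocytes it had 138, 146 and 400 CPM at day 2, 154, 100.2 and 186 at day 14, and 249, 195 and 157 at day 28. Every implant library was at 22.1 CPM or more and no control library above 2.005. The log2 change in macrophages was 6.94 ± 0.78 (SE), 7.998 ± 0.81 and 6.07 ± 0.75 at the 3 days, with edgeR adjusted p of 4.6e-06, 1.7e-06 and 1.8e-05. In monocytes it was 7.31 ± 0.64, 6.67 ± 0.62 and 7.12 ± 0.63, with adjusted p of 6.4e-08, 9.9e-08 and 7.8e-08. In bulk samples such a rise cannot be split into more expressing cells and more RNA per cell.

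Nr4a3, the third receptor of the family, had 0 and 2 counts in the control macrophages and 29, 0 and 0 in the control monocytes. In implant macrophages it had 13.6, 1.77 and 5.32 CPM at day 2, 13.8, 12.6 and 8.61 at day 14, and 2.65, 5.08 and 8.71 at day 28. In implant monocytes it had 34.6, 33.02 and 39.4 CPM at day 2, 40.8, 58.3 and 49.1 at day 14, and 47.8, 12.5 and 35.2 at day 28. All implant libraries lay above all controls, and at each day the lowest monocyte library lay above the highest macrophage library of the same day. In edgeR's test this difference between the cell types was not called at any day (adjusted p of 0.13, 0.1 and 0.1). Against the 2 control counts the macrophage ratio was 170 with a counting interval of 46.7 to 1409 at day 2, 286 (79.1 to 2370) at day 14 and 140 (38.6 to 1163) at day 28. These counting intervals, at 95%, leave out the spread between libraries. Both counts came from control replicate B; without it the level was at least 35.6-fold higher at day 2, at least 60.1-fold at day 14 and at least 29.5-fold at day 28. The adjusted p in edgeR was 0.0021, 0.0015 and 0.004 in macrophages, and at day 28 it was 0.055 without control replicate A and 0.062 without control replicate B. In monocytes the fitted ratio over all 3 controls was 159 at day 2, 220.5 at day 14 and 142 at day 28. The edgeR adjusted p there was 3.7e-05, 1.4e-05 and 4.2e-05. All 29 control counts came from replicate A; without it the level was at least 959-fold higher at day 2, at least 1334-fold at day 14 and at least 828-fold at day 28, against 3 counts over the group.

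Nr4a1, also known as Nur77, differed from its 2 relatives in the controls. It had 52.9 and 24.2 CPM in control macrophages and 868, 318 and 743 in control monocytes. Around the implant macrophages had 260, 203 and 263 CPM at day 2, 429, 495 and 209 at day 14, and 544, 561 and 335 at day 28. The log2 rise in macrophages was 2.65 ± 0.51 (SE), 3.29 ± 0.53 and 3.64 ± 0.54, with edgeR adjusted p of 0.0013, 0.00034 and 0.00013. In implant monocytes it had 594, 588 and 921 CPM at day 2, 336, 554 and 472 at day 14, and 406, 1043 and 954 at day 28, and each day overlapped the controls. The log2 difference there was 0.12, with an interval of -0.68 to 0.92 (1.96 SE to each side), at day 2, -0.50 (-1.31 to 0.30) at day 14 and 0.32 (-0.48 to 1.12) at day 28. Without TMM the day 14 difference was -1.24 with an adjusted p of 0.036, and those of days 2 and 28 were -0.35 and -0.11. The nonclassical marker sum was 59.4 to 80.8 CPM in macrophages at day 2, under the 117 and 127 of their controls, while Nr4a1 was higher there. At day 14 the sum was 116 to 169 CPM and at day 28 156 to 192.5, where Nr4a1 was higher too. The part of nonclassical cells in the macrophage levels was not tested.

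Egr2, which in mouse macrophages is induced by interleukin-4, was present in control macrophages at 56.6 and 35.3 CPM and low in control monocytes at 1.90, 5.47 and 1.32. In implant monocytes it had 93.3, 59.8 and 84.9 CPM at day 2, 67.2, 111 and 72.1 at day 14, and 54.3, 123 and 127 at day 28. Each of these 9 libraries was above the control monocytes, and all but 1 were above both control macrophages. The log2 rise in monocytes was 4.78 ± 0.53, 4.85 ± 0.53 and 5.13 ± 0.54, with edgeR adjusted p of 1.7e-06, 8.6e-07 and 7.3e-07. Macrophages of the implant had 91.8, 48.6 and 87.6 CPM at day 2, 134, 137 and 113 at day 14, and 320, 195 and 115 at day 28. The log2 change in macrophages was 0.73 (adjusted p = 0.34, interval -0.28 to 1.73) at day 2, 1.48 (0.09, 0.45 to 2.52) at day 14 and 2.19 ± 0.54 at day 28, where the adjusted p was 0.012. The call at day 28 was lost without control replicate A (adjusted p = 0.056), control replicate B (0.15) or day 28 replicate A (0.051). With only the groups compared, edgeR gave an adjusted p of 0.059 at day 28, so the call was lost there too. At day 14 DESeq2 gave an adjusted p of 0.043, limma voom 0.01, no low count filter 0.0046 and only the groups compared 0.044.

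Egr1, the founding Egr factor, scattered more between libraries of a group than most members. Its within-group SD of log2 CPM was 0.84, where the median over all genes tested was 0.69 and over genes of at least 10 CPM 0.45. In macrophages it had 38.2 and 154 CPM in controls, 107, 35.6 and 60.6 at day 2, 65.4, 290 and 196 at day 14, and 37.8, 36.1 and 110 at day 28. The groups overlapped, and the log2 differences were -0.50 (interval -1.79 to 0.78), 0.93 (-0.40 to 2.27) and -0.65 (-1.93 to 0.63). In monocytes it had 78.1, 67.4 and 72.0 CPM in controls, 40.0, 34.4 and 45.8 at day 2, 21.5, 13.7 and 23.7 at day 14, and 83.7, 187 and 38.2 at day 28. All libraries at days 2 and 14 were below the controls. The log2 change was -0.86 (adjusted p = 0.3) at day 2, -1.89 ± 0.61 (0.02) at day 14 and 0.50 (0.6) at day 28. That of day 2 was called with no low count filter (0.039) and with only the groups compared (0.019). The fall at day 14 had an adjusted p of 0.062 without day 14 replicate B.

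Klf2, a factor tied to quiescence in lymphocytes and endothelium, fell in implant monocytes. It had 110, 343 and 261 CPM in control monocytes, 73.2, 63.5 and 25.1 at day 2, 44.4, 25.1 and 90.2 at day 14, and 77.5, 22.1 and 19.5 at day 28. No implant library reached the lowest control. It fell by 2.14 ± 0.60, 2.16 ± 0.60 and 2.58 ± 0.61 on the log2 scale, with edgeR adjusted p of 0.013, 0.0085 and 0.0052. The fall at day 2 had an adjusted p of 0.056 without day 2 replicate C, and 0.052 without the 3 libraries that stood apart. In macrophages Klf2 had 44.4 and 42.5 CPM in controls, 140, 113 and 106 at day 2, 27.9, 68.0 and 118 at day 14, and 38.4, 43.5 and 78.7 at day 28. The libraries of day 2 lay above the controls, with a log2 difference of 1.46 (adjusted p = 0.15, interval 0.12 to 2.80). It was called with no low count filter (adjusted p = 0.0067) and with only the groups compared (0.0032). At days 14 and 28 the groups overlapped, with differences of 0.72 (-0.58 to 2.01) and 0.30 (-0.98 to 1.58).

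The fall of Klf2 in monocytes went with lower nonclassical monocyte genes. Of 17 such genes beside the members, 4 were higher and 8 lower at day 2, 4 and 10 at day 14, and 4 and 10 at day 28 in monocytes, with a list median log2 change of -1.51, -1.84 and -2.02. The 8, 10 and 10 lower were 47.1%, 58.8% and 58.8% of the list, beside 11.5%, 17.9% and 6.52% of all genes, and the 4 higher were 23.5%, beside 15.5%, 19.8% and 11.7%. Ace, the angiotensin-converting enzyme gene expressed in nonclassical monocytes, fell by 5.73 ± 0.75 at day 2 and 5.47 ± 0.74 at day 14. Pou2f2, a lymphoid and monocyte transcription factor, fell by 2.85 ± 0.34 at day 2 and 3.14 ± 0.35 at day 14, and at day 28 it fell by 2.69 ± 0.34. Cx3cr1, the fractalkine receptor of the sort gate, fell by 2.63 ± 0.38 at day 2. Cd36, a scavenger receptor on the same list, rose by 4.82 ± 0.56 at day 14 and 4.58 ± 0.55 at day 28. In macrophages the list had 6 higher and 2 lower at day 2, 4 and 1 at day 14, and 4 and 1 at day 28. The higher were 35.3%, 23.5% and 23.5% of the list, beside 10.1%, 5.51% and 6.57% of all genes. The lower were 11.8%, 5.88% and 5.88%, beside 7.1%, 2.7% and 3.99%. On library totals without TMM 4 were higher and 6 lower at day 2, where 843 of all genes were higher and 2857 lower. Nr4a1 was not called in monocytes. It had 868, 318 and 743 CPM in the control monocytes and 336 to 554 at day 14, between control replicate B and the other controls. At day 2 it had 588 to 921 CPM and at day 28 406 to 1043. Without TMM the day 14 difference was -1.24 with an edgeR adjusted p of 0.036. The part of nonclassical cells in the control monocytes was not tested.

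**Figure D3:**
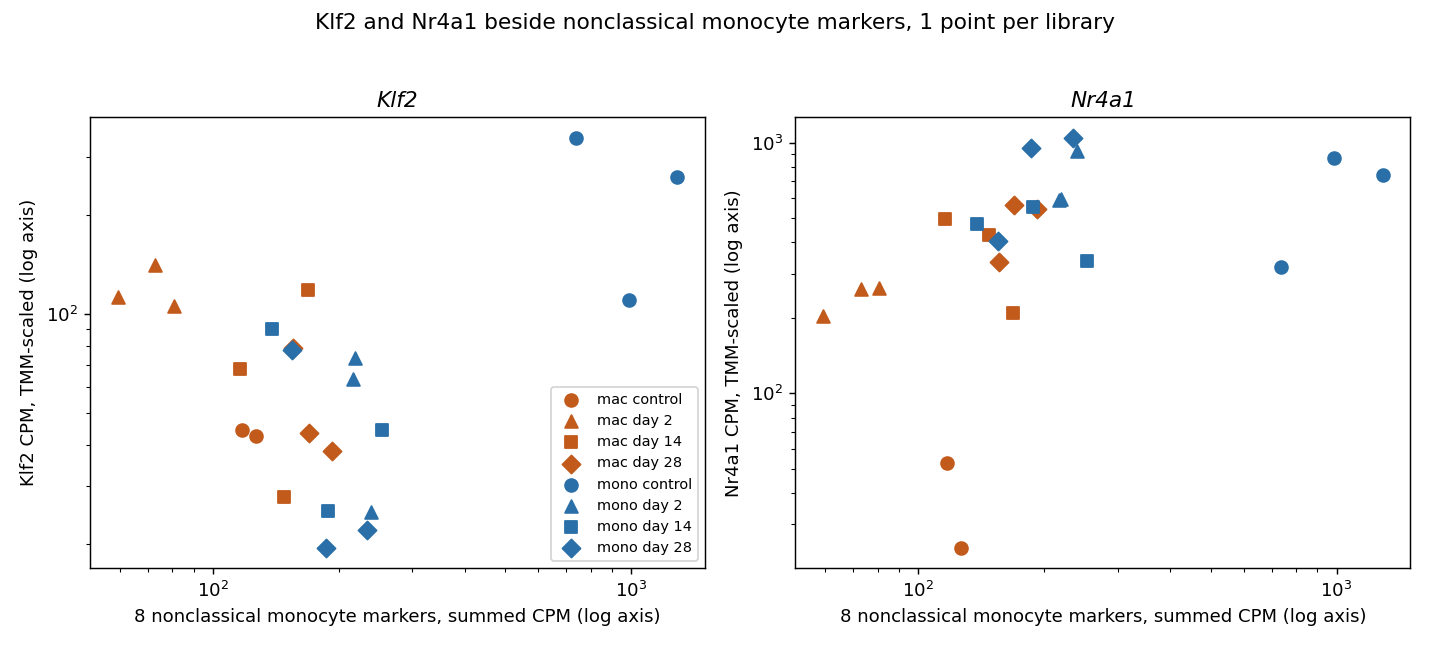
Klf2 (left) and Nr4a1 (right) in TMM-scaled CPM against the summed CPM of 8 nonclassical monocyte markers, 1 point per library, log axes. The 3 control monocyte libraries stand alone at 737 to 1288 on the horizontal axis; Klf2 is highest in 2 of them, and Nr4a1 covers 318 to 868 there, the range of many implant libraries.

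Klf4, which takes part in monocyte differentiation in mice, was nearly equal in its controls, with 42.9 and 34.1 CPM in macrophages and 54.2, 56.6 and 56.1 in monocytes. In implant macrophages it had 250, 174 and 139 CPM at day 2, 96.4, 135 and 131 at day 14, and 77.7, 61.3 and 124 at day 28. In implant monocytes it had 266, 212 and 151 CPM at day 2, 198, 208 and 360 at day 14, and 210, 78.5 and 118 at day 28. All 18 implant libraries were above the controls of their cell type. The log2 rise in macrophages was 2.29 ± 0.42 (adjusted p = 0.00089) at day 2 and 1.65 ± 0.41 (0.014) at day 14, and the difference at day 28 was 1.19 (0.063, interval 0.40 to 1.98). That of day 28 was called by DESeq2 (0.03), with no low count filter (0.022) and without day 28 replicate B (0.049). The call at day 14 was lost without either control, with an adjusted p of 0.095 or 0.12, and on library totals without TMM (0.073). In monocytes it was 1.92 ± 0.36, 2.20 ± 0.36 and 1.28 ± 0.35, with edgeR adjusted p of 0.00057, 0.0001 and 0.014. The call at day 28 was lost without day 28 replicate A (adjusted p = 0.11) and on library totals without TMM (0.07).

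Klf6, a ubiquitous factor that promotes inflammatory gene expression in mouse macrophages, varied least within groups, with an SD of 0.29. It had 399 and 319 CPM in control macrophages and 606, 562 and 459 in control monocytes. In implant macrophages it had 1343, 886 and 1261 CPM at day 2, 1214, 1303 and 772 at day 14, and 1212, 912 and 962 at day 28. The log2 rise was 1.69 ± 0.29, 1.61 ± 0.29 and 1.52 ± 0.29, with edgeR adjusted p of 0.00049, 0.0012 and 0.0016. In implant monocytes it had 1474, 1127 and 884 CPM at day 2, 1134, 1296 and 1727 at day 14, and 731, 701 and 754 at day 28. The log2 rise was 1.10 ± 0.25 (adjusted p = 0.003) and 1.35 ± 0.25 (0.00034), and 0.43 with an interval of -0.06 to 0.91 (0.24) at day 28, although the 3 libraries lay above the controls. Scaled by library totals alone, the rises in monocytes at days 2 and 14 were 0.64 and 0.61, with adjusted p of 0.072 and 0.065.

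Ier3, also called IEX-1, is an NF-kB target that acts on cell survival, and it rose in both cell types. Control monocytes had 5.30, 4.67 and 7.01 CPM, and implant monocytes had 1660, 2126 and 1725 at day 2, 3594, 3286 and 3822 at day 14, and 1862, 1666 and 1920 at day 28. The log2 rise was 8.34 ± 0.38, 9.30 ± 0.39 and 8.32 ± 0.38, with edgeR adjusted p of 1.5e-11, 3.7e-12 and 1.5e-11. Control macrophages already had 81.7 and 126 CPM, above all control monocytes. Implant macrophages had 1658, 1797 and 1249 CPM at day 2, 786, 920 and 1042 at day 14, and 463, 600 and 1128 at day 28. The log2 rise was 3.91 ± 0.36, 3.14 ± 0.35 and 2.81 ± 0.34, with edgeR adjusted p of 4.4e-07, 5.6e-06 and 1.5e-05. In macrophages at day 2 the neutrophil marker sum was also at its highest of the macrophage groups, and in monocytes at day 14 the fibroblast sum had the highest median of the monocyte groups. The part of other cells in these levels was not tested.

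Ier2, a nuclear early-response protein, had the widest scatter within groups together with Nr4a3, with an SD of 0.99. It had 165 and 208 CPM in control macrophages, 249, 317 and 137 at day 2, 230, 271 and 172 at day 14, and 22.5, 74.3 and 154 at day 28. The log2 differences were 0.33 (interval -1.15 to 1.81), 0.27 (-1.21 to 1.74) and -1.16 (-2.60 to 0.29). At day 28 all libraries lay below the controls, and edgeR with no low count filter gave an adjusted p of 0.022. In monocytes it had 396, 406 and 292 CPM in controls, 22.2, 83.6 and 329 at day 2, 73.9, 19.5 and 62.3 at day 14, and 340, 335 and 354 at day 28. At day 14 it fell by 2.81 ± 0.72 on the log2 scale (edgeR adjusted p = 0.0045), with no overlap. At day 2 the difference was -1.33 ± 0.68 (adjusted p = 0.15). It was called by limma voom (0.0042) and by edgeR with no low count filter (0.00039). Replicate C stood at the level of the controls, and without it the difference was -2.78 ± 0.69 (0.0065). At day 28 the difference was -0.09 (-1.40 to 1.22).

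Members were then compared between the days after implantation. In edgeR's test 0 members differed between days 14 and 2 in macrophages, where 0.474% of all genes did, and the unadjusted p was under 0.05 for 3. DESeq2 called 0 members there and limma voom 1. Between days 14 and 2 in monocytes 0 members were called (0.726% of all genes), with an unadjusted p under 0.05 for 2, while DESeq2 and limma voom called 1 each. Between days 28 and 2 in monocytes 0 were called (0.867% of all genes), with an unadjusted p under 0.05 for 2, and neither DESeq2 nor limma voom called any. Between days 28 and 2 in macrophages 1 member was called, against 4.26% of all genes, and the unadjusted p was under 0.05 for 5. DESeq2 called 3 members there, limma voom 5 and edgeR with no low count filter 6. The member called was Ier3, which fell by 1.10 ± 0.28 on the log2 scale (adjusted p = 0.03). On library totals without TMM it was at -0.97 (0.055), and with only the groups compared at -1.06 (0.091). Leaving out any 1 of the 6 libraries except day 28 replicate C gave an adjusted p of 0.05 to 0.14, and leaving out the libraries that stood apart gave 0.33.

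Between the cell types, 4 members differed in the controls, where 12.5% of all genes did. A different source or make-up of the control monocytes cannot be told apart from cell type there. Egr2 was higher in control macrophages by 3.99 ± 0.53 and Ier3 by 4.20 ± 0.32 on the log2 scale, with edgeR adjusted p of 2.1e-05 and 2e-08. Nr4a1 was lower in control macrophages by -4.06 ± 0.55 and Klf2 by -2.45 ± 0.72, with adjusted p of 2.8e-05 and 0.027. The Klf2 call was lost without either macrophage control (0.14 and 0.15), monocyte control replicate B (0.069) or replicate C (0.053). DESeq2 and limma voom called 4 members each in the controls, 3 each at day 2, 5 each at day 14 and 4 each at day 28. At day 2, 1 member was called, where 3.42% of all genes were, and it was Nr4a1, at -1.54 ± 0.42 (0.045), which was lost without any 1 of the 6 libraries (0.067 to 0.18) and on library totals without TMM (-1.69, 0.051). At day 14, 2 were called (9.37% of all genes): Egr1 was higher in macrophages by 3.23 ± 0.65 (0.0052), and Ier3 was at -1.96 ± 0.28 (0.00041). At day 28, 2 were called (2.52% of all genes), with Nr4a2 at -2.38 ± 0.50 (0.017) and Ier3 at -1.31 ± 0.28 (0.017). The Nr4a2 call was lost without day 28 macrophage replicate A (0.11) or B (0.074), and the Ier3 call without these (0.11 and 0.08) or monocyte replicate C (0.062). With only the groups compared both calls at day 28 were lost (0.097 for Nr4a2 and 0.2 for Ier3).

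The difference between the changes in the cell types was tested as an interaction, the macrophage change minus the monocyte change. Each such difference includes the control monocytes, so their source or make-up cannot be told apart from a different response of the cell types. At day 2, 4 members differed, where 3.78% of all genes did; at day 14, 3 (7.55%); at day 28, 3 (5.77%). Ier3 rose less in macrophages, with a difference of -4.43 ± 0.42, -6.16 ± 0.43 and -5.51 ± 0.42 on the log2 scale and edgeR adjusted p of 1.2e-06, 1e-08 and 5.6e-08. Egr2 also rose less in macrophages, by a difference of -4.05 ± 0.68, -3.36 ± 0.68 and -2.94 ± 0.68, with adjusted p of 0.00098, 0.0041 and 0.011. Both genes had higher control levels in macrophages, by the 4.20 and 3.99 given above. Nr4a1 rose in macrophages relative to monocytes by 2.53 ± 0.63, 3.80 ± 0.65 and 3.32 ± 0.64, with adjusted p of 0.025, 0.001 and 0.0027. Klf2 differed at day 2 by 3.60 ± 0.92 (0.028), and the differences at days 14 and 28 were 2.87 (0.056) and 2.88 (0.068). Also not called were Egr1 at 2.82 (0.065) and Ier2 at 3.08 (0.074) at day 14, and Klf6 at 1.09 (0.098) at day 28. The Nr4a1 call at day 2 was lost in 7 of 11 fits that left out 1 library (adjusted p of 0.057 to 0.19): macrophage control B, day 2 macrophages A or C, monocyte controls A or C, and day 2 monocytes A or B. It was also lost on library totals without TMM (0.073). The Klf2 call was lost in 5 of 11 (0.058 to 0.13): either macrophage control, day 2 macrophages A, monocyte control B or day 2 monocytes C. The Egr2 call at day 28 was lost without macrophage control A (difference of -2.56). It was also lost with only the groups compared (adjusted p = 0.068). Without the 3 libraries that stood apart, which leaves 1 macrophage library at day 2 that is assumed to vary like the others, 1 member was called at day 2. That member was Ier3, and Egr2 had an adjusted p of 0.057, Nr4a1 0.21 and Klf2 0.14.

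**Figure D4:**
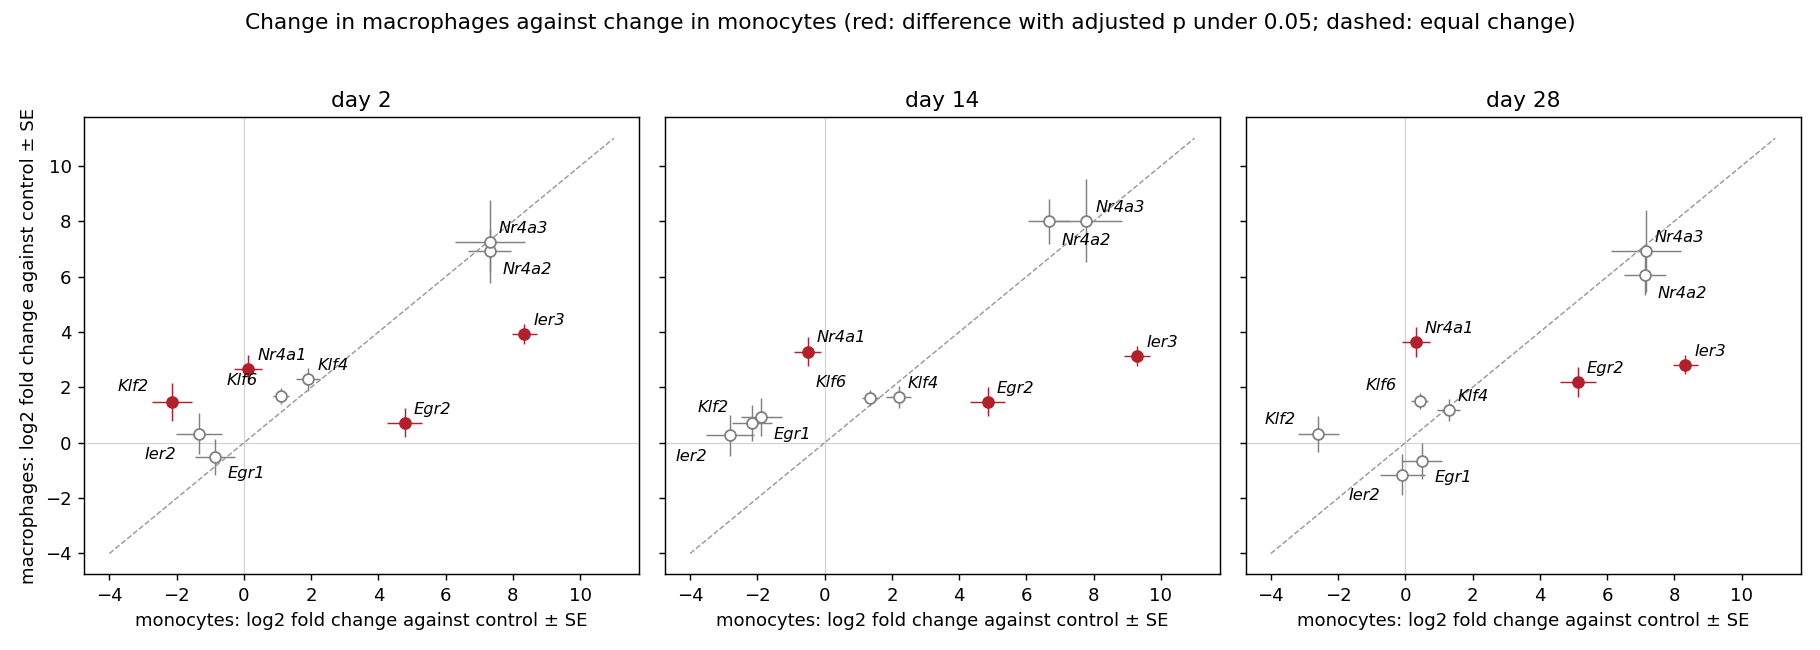
Log2 fold change ± SE against controls in monocytes (horizontal) and macrophages (vertical) at days 2, 14 and 28; red points differ between the cell types with an adjusted p under 0.05, and the dashed line marks equal change. Ier3 and Egr2 lie below the line and Nr4a1 above it at all 3 days, Klf2 above it in red at day 2.

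The members differed in how far they varied together over the libraries. Over 23 libraries of 8 groups, Pearson's r of log2 CPM was 0.96 between Nr4a2 and Nr4a3, 0.87 between either and Ier3, and 0.83 between Egr2 and Ier3. Nr4a1, by contrast, gave 0.53 with Nr4a2, 0.50 with Nr4a3 and 0.14 with Ier3, and Egr1 gave 0.58 with Ier2 and -0.08 with Egr2. For deviations from the group means r was 0.63 between Nr4a2 and Nr4a3, 0.30 between Nr4a2 and Ier3, and 0.18 between Nr4a3 and Ier3. Between Egr2 and Ier3 it was -0.73, between Klf2 and Klf4 0.75, and between Klf2 and Nr4a1 -0.69. These values describe libraries that share groups, controls and library preparation.

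For each member the 3 genes with the highest r over the 23 libraries were listed, among named genes of at least 10 CPM. For Nr4a3 these were Crem, a CREB-family gene (0.96), Ccrl2, a chemerin-binding receptor (0.96), and Tgif1 (0.95), and for Nr4a2 Ets2, Raet1e and Ccrl2 (0.96 each). For Ier3 they were Timp1, a metalloproteinase inhibitor (0.98), Tnfsf9, the 4-1BB ligand (0.97), and Cxcl2, a neutrophil chemokine (0.97). For Egr2 they were Slc41a2 (0.96), Lrp12 (0.94) and Emp1 (0.94), and for Nr4a1 Fgr, a Src-family kinase (0.93), Gpr35 (0.91) and Gcnt2 (0.89). For Klf4 they were Cebpb (0.95), H3f3b (0.94) and Chmp2a (0.93), for Klf6 Azin1 (0.88), Atg5 (0.88) and Smim7 (0.86), and for Klf2 Ppp3ca (0.85), Dirc2 (0.82) and Rnf220 (0.79). For Ier2 they were Spi1, which encodes the myeloid factor PU.1, Maf1 (0.97 each) and Nubp1 (0.96), and for Egr1 Naglu, Rcn2 and Itfg1 (0.88 to 0.92).

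Among other immediate-early genes, more were higher than lower after implantation. Of 36 such genes, all tested, 19 were higher and 0 lower in macrophages at day 2, 19 and 0 at day 14 and 13 and 0 at day 28, with a median log2 change of 1.72, 1.98 and 1.63. In monocytes 22 were higher and 3 lower, 25 and 3, and 25 and 0, with medians of 1.68, 1.52 and 1.79. Without TMM the counts in macrophages at day 2 were 13 higher and 2 lower, in monocytes at day 2 17 and 6, and in monocytes at day 14 16 and 4. The share of the list that was higher was 52.8%, 52.8% and 36.1% in macrophages, beside 10.1%, 5.51% and 6.57% of all genes, and 61.1%, 69.4% and 69.4% in monocytes, beside 15.5%, 19.8% and 11.7%. The 3 lower in monocytes at days 2 and 14 were 8.33% of the list, beside 11.5% and 17.9% of all genes. Fos, a subunit of AP-1, had a mean of 1010 CPM in control macrophages and 4055, 4410 and 5455 CPM at the 3 days, a log2 rise of 2.01 ± 0.28, 2.13 ± 0.29 and 2.43 ± 0.29. Sgk1, a serum and glucocorticoid induced kinase, had a mean of 50.6 CPM there and 630, 920 and 1075 after implantation. In monocytes Zfp36l1, which promotes mRNA decay, had a mean of 5.36 CPM in controls and 87.8, 110 and 78.4 at the 3 days, and Plk2, a stress-induced kinase, 9.81 and then 98.4, 173 and 139.

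Among 18 other Egr, Nr4a, Klf and Ier genes in the table, 12 were tested. In macrophages 3, 1 and 2 of these were higher at the 3 days and 0 lower, while the unadjusted p was under 0.05 for 3, 2 and 2. With no TMM scaling 2, 0 and 0 were higher. In monocytes 1 was higher at each day and 5, 4 and 2 were lower. The share higher was 25%, 8.33% and 16.7% in macrophages, beside 10.1%, 5.51% and 6.57% of all genes, and 8.33% at each day in monocytes, beside 15.5%, 19.8% and 11.7%. The share lower in monocytes was 41.7%, 33.3% and 16.7%, beside 11.5%, 17.9% and 6.52%. Klf7 rose in both cell types, by 1.77 ± 0.35, 1.23 ± 0.34 and 1.08 ± 0.34 in macrophages and by 2.58 ± 0.31, 3.06 ± 0.32 and 2.08 ± 0.31 in monocytes. Klf13 rose in macrophages by 1.54 ± 0.33 at day 2 and 1.21 ± 0.32 at day 28, and in monocytes it fell by 1.31 ± 0.28, 1.25 ± 0.28 and 1.27 ± 0.28. Klf3, a transcriptional repressor, fell in monocytes by 1.59 ± 0.39, 2.25 ± 0.40 and 2.16 ± 0.40.

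Of 19 regulators and cofactors of the members, 4 were higher and 2 lower in macrophages at day 2, 4 and 0 at day 14 and 4 and 0 at day 28. In monocytes 4 and 6, 3 and 7, and 4 and 4 were higher and lower. Without TMM the macrophage counts were 1 and 5, 1 and 1, and 2 and 1, and the monocyte counts 2 and 10, 3 and 11, and 3 and 6. On that scale 843, 517 and 584 of all genes were higher in macrophages, and 2857, 1433 and 1346 lower. In monocytes 1638, 1861 and 1359 were higher, and 3215, 5361 and 2050 lower. With TMM the 4 higher in macrophages were 21.1% of the list, beside 10.1%, 5.51% and 6.57% of all genes. The 2 lower at day 2 were 10.5%, beside 7.1%. In monocytes 21.1%, 15.8% and 21.1% were higher, beside 15.5%, 19.8% and 11.7%, and 31.6%, 36.8% and 21.1% lower, beside 11.5%, 17.9% and 6.52%. Crem, whose protein binds the cyclic AMP response element, had a mean of 10.4 CPM in control macrophages and 108, 109 and 71.9 at the 3 days. In monocytes its mean was 5.08 CPM in controls and 394, 445 and 197 after implantation, a log2 rise of 6.28 ± 0.43, 6.45 ± 0.43 and 5.28 ± 0.41. Elk3, a partner of serum response factor, rose by 0.93 ± 0.25, 1.15 ± 0.26 and 1.26 ± 0.26 in macrophages and by 1.5 ± 0.22, 1.77 ± 0.23 and 1.81 ± 0.23 in monocytes. Mrtfa, a coactivator of serum response factor, fell in monocytes by 2.32 ± 0.40, 2.80 ± 0.41 and 2.35 ± 0.40. Nab2, a corepressor of Egr proteins, rose in monocytes at day 28 by 2.13 ± 0.39, and it was higher in control macrophages than in control monocytes by 1.63 ± 0.42.

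Heat shock and unfolded protein genes, also known to respond to handling and digestion, were followed as a further list of 14. In macrophages 2 were higher and 0 lower at day 2, 0 and 0 at day 14 (3 with an unadjusted p under 0.05 in edgeR), and 0 and 2 at day 28. On library totals without TMM the day 2 count was 0 higher and 2 lower. Hspa1b and Hspa1a, the inducible Hsp70 genes, fell in macrophages at day 28 by 2.49 ± 0.59 and 2.02 ± 0.54, from a mean of 1383 and 694 CPM in controls to 247 and 171. The 2 higher at day 2 were 14.3% of the list, beside 10.1% of all genes, and the 2 lower at day 28 were 14.3%, beside 3.99%. In monocytes 7 were higher and 2 lower at day 2, 7 and 2 at day 14 and 4 and 0 at day 28. There 50%, 50% and 28.6% of the list were higher, beside 15.5%, 19.8% and 11.7% of all genes, and the 2 lower were 14.3%, beside 11.5% and 17.9%. Without TMM the monocyte counts were 5 and 2, 5 and 3, and 3 and 2. Hspa5, the endoplasmic reticulum chaperone BiP, rose there by 1.79 ± 0.29, 1.73 ± 0.29 and 1.26 ± 0.29, and Hsp90aa1 by 1.68 ± 0.28, 2.33 ± 0.29 and 1.29 ± 0.28. The part of tissue handling in the members' levels was not tested.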

How the data were processed

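The deposited values are counts of reads per gene, whole numbers made by the authors for 47729 gene entries in 23 libraries of 8 groups. Per the labels' protocols, RNA was amplified with SMART-Seq v4 and prepared with Nextera XT, and per the submitters' processing notes the tools were bcl2fastq, STAR 2.4.1d and featureCounts of Subread 1.5.1 on GRCm38. Which annotation release was counted, whether strand was used and how reads mapping to several places were treated are details not given in the sources used here. Amplification without molecular identifiers means that counts are not independent molecules. Symbols, coordinates and exon lengths came from a GENCODE annotation of the mouse, and promoter windows from RefSeq tables of GRCm38.p6.

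The tests were run with edgeR 4.0.16 under R 4.3.3: filterByExpr by group, TMM scaling and 1 robust quasi-likelihood fit of 8 group means over 16260 genes. F tests were made in 17 contrasts, with Benjamini-Hochberg adjustment over all genes and calls under 0.05. Fold changes on the log2 scale carry a prior count of 0.125, each SE is that change in absolute size divided by the root of its F, and intervals are 1.96 SE to each side. The members and the 5 lists were chosen with earlier results of these data known, so their counts are no independent evidence. Besides the members, up to 4 called genes with the smallest adjusted p were named per list and comparison, and the 3 genes with the highest correlation (log2 CPM with a prior count of 2) per member. Alternatives were DESeq2 1.42.0 and its size factors, limma 3.58.1 voom, no low count filter, a prior count of 2, only the groups compared, a replicate block and leaving out each library. Library totals without TMM and leaving out 3 libraries were added after the data were seen.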

Additional observations from a re-analysis of the deposited data

Results flagged for a closer look

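Each of these results met the same condition: the change against controls differed between macrophages and monocytes in edgeR's test of the interaction, with an adjusted p under 0.05. Values are the macrophage change minus the monocyte change on the log2 scale.

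For Ier3 the difference was -4.43 at day 2, -6.16 at day 14 and -5.51 at day 28. The gene rose in both cell types at each day, and its control level was higher in both macrophage libraries than in the 3 monocyte libraries. For Egr2 the difference was -4.05, -3.36 and -2.94 at the 3 days. It too had higher control levels in macrophages. For Nr4a1 the difference was 2.53, 3.80 and 3.32, with control levels of 24.2 and 52.9 CPM in macrophages and 318 to 868 in monocytes. For Klf2 the difference was 3.60 at day 2, where the 3 macrophage libraries were above their controls and the 3 monocyte libraries below theirs. All 10 values rest on the same 2 macrophage and 3 monocyte control libraries. A different source or make-up of the control monocytes cannot be told apart from a different response of the cell types.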

How the results depend on the processing

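Of 60 called gene results, 0 changed direction under any alternative, and 43 kept their call under every one. On library totals without TMM 7 of the 60 were lost, with only the groups compared 5, with DESeq2 size factors 1, and with DESeq2, limma voom, no low count filter or a prior count of 2 none. Leaving out 1 library ended 14 of them in at least 1 fit, and leaving out the 3 libraries that stood apart ended 6 of the 19 it touched.

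The counts of members called moved by more than 1.5 times mainly where few were called. Between days 14 and 2 in macrophages, 0 became 2 with no low count filter and 1 with limma voom. Between days 28 and 2 in macrophages, 1 became 6 with no low count filter, 5 with limma voom, 3 with DESeq2, and 0 on library totals or without the 3 libraries; leaving out 1 library gave 0 to 3. Between days 14 and 2 in monocytes, 0 became 1 with no filter, limma voom or DESeq2, and between days 28 and 2 in monocytes 0 became 2 with no filter. Between the cell types at day 2, 1 became 4 with no filter, 3 with limma voom or DESeq2, and 0 with DESeq2 size factors or without the 3 libraries; leaving out 1 library gave 0 to 1. At day 14, 2 became 5 with no filter, limma voom or DESeq2 and 4 with only the groups compared. At day 28, 2 became 5 with no filter, 4 with limma voom or DESeq2 and 0 with only the groups compared; leaving out 1 library gave 0 to 3. The interaction at day 2 went from 4 to 1 without the 3 libraries, and leaving out 1 library gave 2 to 4. The interaction at day 14 went from 3 to 6 with no filter, limma voom or DESeq2, and to 5 with only the groups compared or on library totals; leaving out 1 library gave 3 to 5. The cause of these moves was not tested.

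The replicate letters are not described as pairing samples, and samples with the same letter had correlations of their deviations of -0.08 to 0.216 in 11 pairs, against -0.216 to 0.148 for different letters. With a replicate block 2 of the 60 calls were lost: Nr4a1 between the cell types at day 2 (-1.54, adjusted p = 0.069), which took that count from 1 to 0, and the Klf2 interaction at day 2 (3.50, 0.055).

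Sign changes were seen among members that were not called. Against controls, Egr1 in macrophages at day 2 was 0.16 without the 3 libraries and -1.26 to 0.80 leaving out 1 library, and at day 28 -1.42 to 0.74. Without TMM, Ier2 in macrophages was -0.25 at day 2 and -0.24 at day 14, Klf2 in macrophages at day 28 -0.17, and Nr4a1 in monocytes -0.35 at day 2 and -0.11 at day 28. Nr4a1 in monocytes at day 2 was -0.10 with limma voom. Leaving out 1 library, Klf2 in macrophages at day 28 was -0.12 to 0.49, Nr4a1 in monocytes -0.25 to 0.37 at day 2 and -0.007 to 0.64 at day 28, and Egr1 in monocytes at day 28 -0.25 to 0.90.

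On library totals without TMM, the split of all genes into higher and lower changed in each comparison with controls. In macrophages it went from 1643 and 1154 to 843 and 2857 at day 2, from 896 and 439 to 517 and 1433 at day 14, and from 1069 and 648 to 584 and 1346 at day 28. In monocytes it went from 2522 and 1867 to 1638 and 3215 at day 2, from 3226 and 2906 to 1861 and 5361 at day 14, and from 1905 and 1060 to 1359 and 2050 at day 28. Depth limits Nr4a3 most, since its controls held 0 to 29 counts.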
